A study of Mus musculus with 2 samples.

Results

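The cells described here are a small group of CD8-negative T cells from subcutaneous 4T1 tumours, a mouse mammary carcinoma model, chosen for UMIs of Tnfsf8, Slamf6, Gpm6b and Sostdc1. A UMI is 1 captured RNA molecule. They number 66 of the 17746 cells retained in the series, 46 in the library of tumours given phototherapy mediated by AIE COF (a covalent organic framework) and 20 in the library of tumours given PBS. The study's title asks whether such frameworks can bring about tertiary lymphoid structures in tumours. Per the labels, both libraries came from tumours collected on day 7 after phototherapy, in mice whose strain is written C57BL/c, and were prepared with the MobiCube 3' kit. Each group is 1 library, the labels do not state how many animals were pooled for it, and the PBS group carried the same tumour line.

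Helper T cells carry CD4, recognise antigen on other cells and pass signals through surface ligands and cytokines. CD40 ligand (Cd40lg) and CD30 ligand (Tnfsf8) are TNF family ligands that act on receptors of B cells, dendritic cells and other T cells, and SLAM receptors such as Slamf6 steady the contact between T and B cells through the adaptor SAP, encoded by Sh2d1a. Follicular helper T cells, which depend on the transcription factor Bcl6, give this help to B cells in follicles and in lymphoid aggregates of inflamed tissue.

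Barcodes with under 200 detected genes or over 20% mitochondrial UMIs were left out. A T cell had at least 2 UMIs, and at least 0.1% of its UMIs, from 8 T cell genes, and cells with 3 or more UMIs of 4 cycling genes, any UMI of Cd8a or Cd8b1, or more than 1 UMI of Foxp3, Il2ra, Ikzf2 and Tnfrsf4 were set aside. The helper gate then asked for a sum of at least 2 UMIs of the 4 gate genes. The other CD8-negative T cells, 712 in the treated and 200 in the PBS library, passed the same steps with a sum of 0 or 1. The levels of the 4 gate genes and the absence of Cd8a and Foxp3 are therefore descriptions of the choice.

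The gate rested on few molecules per cell. The sum was exactly 2 in 19 treated and 10 PBS cells and at least 5 in 17 treated and 5 PBS cells, with a highest value of 14 in the treated and 25 in the PBS library. Just outside it, 84 treated and 23 PBS cells had a sum of 1. Cells whose gate UMIs were of Slamf6 alone made up 15 of the treated and 9 of the PBS members, and 26 treated and 7 PBS members had UMIs of 2 or more gate genes. The libraries shared 39 barcodes, none of them among the members.

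Tnfsf8, on the minus strand of chr4:63831308-63861347 (mm10), gave 86 UMIs in 23 treated members and 53 UMIs in 9 PBS members. Its level in the summed member cells was 881 per 1000000 UMIs (CPM) in the treated and 1020 CPM in the PBS library. Slamf6 (chr1:171917515-171953170, plus strand) gave 80 UMIs in 36 treated and 30 UMIs in 14 PBS members. Gpm6b, which encodes a neuronal membrane glycoprotein, gave 30 UMIs in 13 treated and 9 UMIs in 5 PBS members. Sostdc1 (chr12:36314139-36318452, plus strand), a secreted inhibitor of BMP and Wnt signals, was the rarest, with 21 UMIs in 9 treated and 12 UMIs in 2 PBS members. No Sostdc1 UMI was found in the other CD8-negative T cells of either library, and each comparison group was set to a floor of 3 counts. Against this floor its level was at least 80.2-fold higher in treated members and at least 30.8-fold higher in PBS members. Sostdc1 is a gate gene, so the gate itself kept cells with 2 or more of its UMIs out of the comparison groups. These fold values therefore describe the choice of cells and are not a separate result. In the regulatory gate (at least 2 UMIs of Foxp3, Il2ra, Ikzf2 and Tnfrsf4), Sostdc1 stood at 35.8 CPM in the treated and 23.7 CPM in the PBS library. Those levels came from only 2 of 197 treated and 1 of 115 PBS cells.

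Of the genes that chose these cells, the promoters of the leading pair are shown because the 4-gene sum was mostly theirs. They are the 250 bases before the RefSeq start on GRCm38.p6, chr4:63861285-63861534 on the minus strand for Tnfsf8 and chr1:171917212-171917461 on the plus strand for Slamf6. Capitals mark a match to GGAAA, the core bound by NFAT, or to CTTTGA, the core bound by TCF7 and LEF1, searched on both strands.
Tnfsf8: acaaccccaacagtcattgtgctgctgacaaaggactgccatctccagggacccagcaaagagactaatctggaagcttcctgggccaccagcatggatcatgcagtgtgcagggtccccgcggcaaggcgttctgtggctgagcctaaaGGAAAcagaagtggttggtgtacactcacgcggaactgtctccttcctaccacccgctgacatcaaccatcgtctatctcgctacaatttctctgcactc
Slamf6: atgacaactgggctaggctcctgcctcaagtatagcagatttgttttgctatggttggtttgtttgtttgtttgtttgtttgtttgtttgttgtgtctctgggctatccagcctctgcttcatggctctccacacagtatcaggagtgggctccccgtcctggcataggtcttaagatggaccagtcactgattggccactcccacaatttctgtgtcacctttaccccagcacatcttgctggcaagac
The Tnfsf8 window held 1 GGAAA match, which starts 100 bases before the gene's start, and the Slamf6 window held neither motif. Of all 32851 RefSeq promoter windows of this length, 55.6% held GGAAA and 13.8% held CTTTGA.

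**Figure D1:**
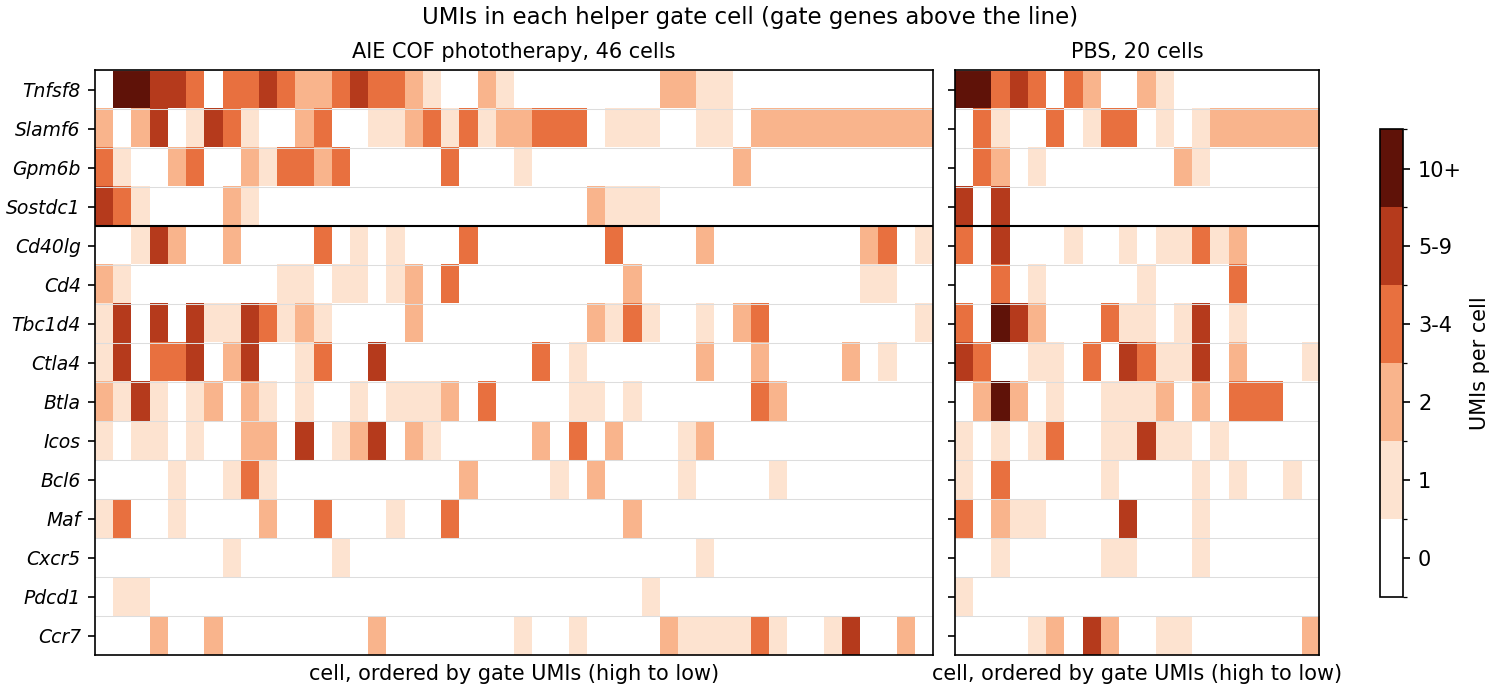
UMIs of the 4 gate genes (above the line) and of 11 other genes (rows) in each of the 46 AIE COF phototherapy and 20 PBS member cells (columns), with cells ordered by gate UMIs from high to low. The right end of each block holds cells with 2 UMIs of Slamf6 alone, and Cxcr5 has a UMI in only 3 treated and 4 PBS cells.

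The helper label was checked against genes outside the gate. Cd40lg, a ligand typical of activated CD4 T cells, gave 33 UMIs in 13 treated members and 22 UMIs in 9 PBS members, which is 338 CPM in the treated and 423 CPM in the PBS library. The CD8 gate (any UMI of Cd8a or Cd8b1) held 10.5 CPM of Cd40lg in the treated and 7.14 CPM in the PBS library. Cd4 gave 17 UMIs in 12 treated and 9 UMIs in 4 PBS members. That is 26.1% of treated and 20% of PBS members, against 12.6% and 13% of other CD8-negative T cells. The share of members with a UMI of Cd4 or Cd40lg was 45.7% in the treated and 55.0% in the PBS library, so the CD4 lineage was seen directly in only some of the cells. With every cell thinned to 1000 UMIs, Cd40lg was detected in 25% of 44 treated and 30% of 20 PBS members (28.3% and 45.0% unthinned), against 14.3% and 13.0% of other CD8-negative T cells. Cd4 was detected in 13.6% of treated and 10% of PBS members at that depth, against 8.71% and 10.7% of other CD8-negative T cells. Thinned Cd4 detection was thus no higher in PBS members than in the comparison cells. Without thinning 2 of 936 treated and 0 of 346 PBS B gate cells had a Cd40lg UMI. After thinning it was 0 of 723 treated and 0 of 317 PBS cells, which allows up to 0.415% and 0.946% of cells with a UMI at that depth. Median depth before thinning was 1943 UMIs in treated and 2118.5 in PBS members, 1440.5 and 1694 in other CD8-negative T cells, and 1295 and 1643.5 in B gate cells.

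Helper gate cells made up a larger share of all cells in the treated library, while the intervals of the ratios within T cells and within CD8-negative conventional T cells include 1. They were 0.494% of 9313 retained cells in the treated library (exact 95% binomial interval 0.362 to 0.658) and 0.237% of 8433 in the PBS library (0.145 to 0.366), a ratio of 2.08 (exact conditional interval 1.21 to 3.72). Of all T cells they were 2.80% of 1645 in the treated and 2.57% of 778 in the PBS library, a ratio of 1.09 (0.631 to 1.94). Of CD8-negative conventional T cells they were 6.07% of 758 in the treated and 9.09% of 220 in the PBS library, a ratio of 0.668 (0.387 to 1.19). CD8-negative conventional T cells as a whole were 8.14% of treated and 2.61% of PBS cells, a ratio of 3.12. Cells with 2 or more gate UMIs also occurred behind the other gates, with 25 of 197 treated and 11 of 115 PBS regulatory gate cells, 33 of 590 treated and 19 of 341 PBS CD8 gate cells, and 20 of 100 treated and 11 of 102 PBS cycling T cells.

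With 1 library per group no difference between the groups can be tested, and all intervals cover counting error only. With cells thinned before the gates, which left 37 treated and 11 PBS members, they were 2.74% of treated and 1.64% of PBS T cells (log2 ratio 0.75), and the order of the last share turned (0.35). The log2 ratio of the last share was -1.91 without cells carrying 3 or more UMIs of B cell, macrophage, tumour or fibroblast genes, where the ratio over all T cells also turned (-1.87, with 18 treated and 11 PBS members). This filter also removed T cells from the totals that members were counted against. Members were then 2.5% of treated and 9.17% of PBS T cells, so the turn reflects those totals as well as the members.

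**Figure D2:**
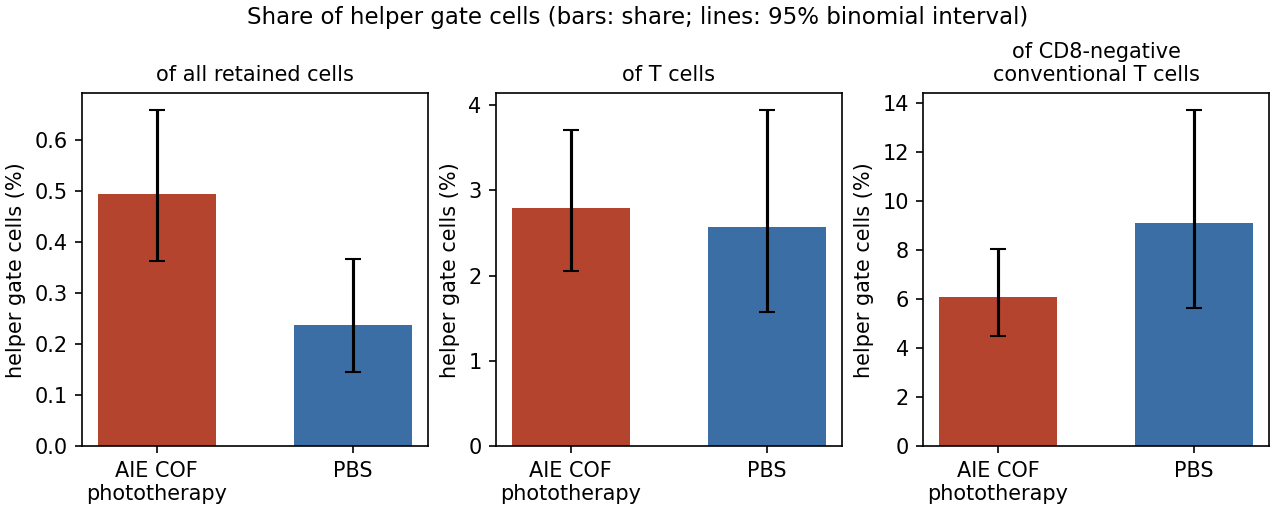
Helper gate cells as a percentage of all retained cells, of T cells and of CD8-negative conventional T cells in the AIE COF phototherapy library (left bar of each panel) and the PBS library (right bar), with exact 95% binomial intervals. The bars differ in order between the panels: 0.494% against 0.237% of all cells, and 6.07% against 9.09% of CD8-negative conventional T cells.

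Set against other CD8-negative T cells of the same library, the members carried more RNA of Tbc1d4, Ctla4, Rora and several genes of follicular helper T cells. Among 2517 genes with at least 30 UMIs over both kinds of cell in each library, 36 were at least 2-fold higher in members in both libraries and 36 at least 2-fold lower (1.43% each way). The gate genes are not counted. No test was made, and the members were chosen with results of these data known.

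Tbc1d4 (chr14:101442360-101609191, minus strand), a Rab GTPase-activating protein that acts in insulin-stimulated glucose transport, had the highest level ratio of the measured genes in both libraries. It gave 50 UMIs in 20 of 46 treated members and 34 UMIs in 10 of 20 PBS members. That is 512 CPM in the treated and 654 CPM in the PBS members, against 41.1 and 37.5 CPM in other CD8-negative T cells. The log2 ratio was 3.64 in the treated library (interval 3.03 to 4.25) and 4.12 in the PBS library (3.21 to 5.11). Regulatory gate cells lay lower than the members, at 112 CPM in the treated and 94.9 CPM in the PBS library. Those with 2 or more gate UMIs lay above that gate as a whole, at 437 CPM in the treated and 343 CPM in the PBS library. High Tbc1d4 was thus not particular to the members. After thinning, Tbc1d4 had a UMI in 34.1% of treated members and 35.0% of PBS members, against 4.01% and 4.73% of other CD8-negative T cells and 0.553% and 0.315% of B gate cells.

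Ctla4, the inhibitory receptor that competes for the ligands of CD28, gave 46 UMIs in 16 treated members and 40 UMIs in 12 PBS members. Its level was 471 CPM in treated and 770 CPM in PBS members, against 76.9 and 128 CPM in other CD8-negative T cells (log2 ratio 2.62 in the treated and 2.59 in the PBS library). Regulatory gate cells, which use Ctla4 constitutively, were higher still, at 1017 CPM in the treated and 1125 CPM in the PBS library. Rora, a nuclear receptor used by several helper T lineages, stood at 533 CPM in treated and 577 CPM in PBS members, against 118 and 113 CPM (2.17 in the treated and 2.36 in the PBS library). Its regulatory gate levels were 523 CPM in the treated and 410 CPM in the PBS library.

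Of the 30 genes of a follicular helper T list, 14 were measured, and 6 of these were at least 2-fold higher in members of both libraries and none lower. The list's median log2 ratio was 1.02 in the treated and 1.30 in the PBS library, beside 0.045 and -0.056 over all measured genes. The 6 genes were Btla, Bcl6, Maf, Icos, Sh2d1a and Rgs10.

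Btla, an inhibitory receptor shared with B cells, gave 389 CPM in treated and 616 CPM in PBS members, against 111 and 65.0 CPM in other CD8-negative T cells. Its log2 ratio was 1.81 in the treated and 3.24 in the PBS library. Bcl6, the transcription factor of the follicular helper lineage, gave 14 UMIs in 9 treated members and 9 UMIs in 6 PBS members. Its log2 ratio was 2.08 (interval 1.08 to 2.99) in the treated and 1.53 (0.24 to 2.69) in the PBS library. Bcl6 was lower in regulatory gate cells, at 47.8 CPM in the treated and 23.7 CPM in the PBS library, against 143 and 173 CPM in the members. In regulatory gate cells with 2 or more gate UMIs it stood at 125 CPM in the treated and 85.8 CPM in the PBS library. Maf, a transcription factor known from follicular helper T cells, had log2 ratios of 2.52 in the treated and 1.40 in the PBS library. Unlike Bcl6 it was higher in regulatory gate cells, at 411 CPM in the treated and 454 CPM in the PBS library, against 184 and 250 CPM in the members.

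Icos, a costimulatory receptor, stood at 358 CPM in treated and 366 CPM in PBS members, with log2 ratios of 1.52 in the treated and 1.13 in the PBS library over other CD8-negative T cells. Sh2d1a, the adaptor of the SLAM receptors, had log2 ratios of 1.18 in the treated and 2.05 in the PBS library. The end of Sh2d1a overlaps Tenm1, so its counts are less certain. Cd40lg was higher by 0.78 on the log2 scale in the treated and 1.43 in the PBS library, and so missed the 2-fold mark in the treated library.

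**Figure D3:**
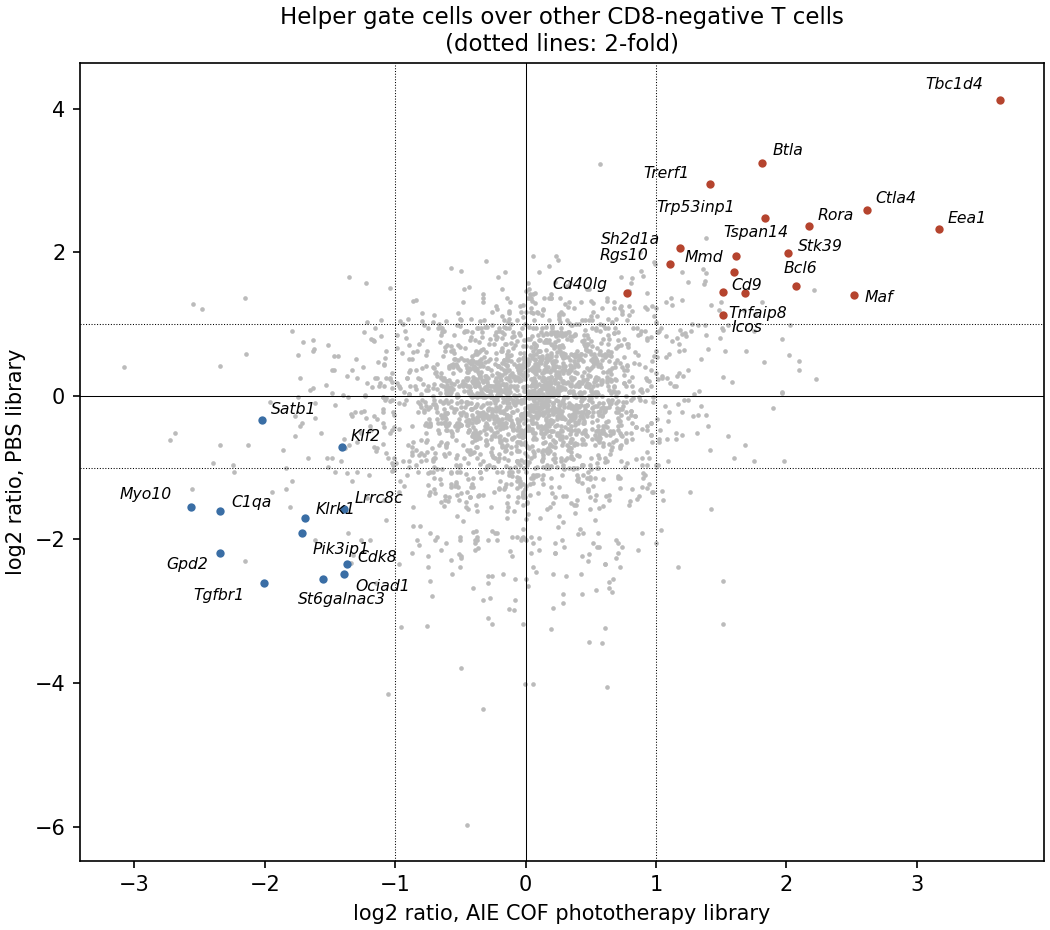
Log2 level ratio of helper gate cells over other CD8-negative T cells in the AIE COF phototherapy library (horizontal) and the PBS library (vertical) for the 2517 measured genes, with named genes higher in red and lower in blue. Tbc1d4 lies farthest out at 3.64 and 4.12, and the named lower genes rest on at most 5 UMIs in the members, apart from Satb1 and Klf2.

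The promoters of Tbc1d4 and Btla are given because both genes stood among the 15 highest ratios. They are the 250 bases before the RefSeq start on GRCm38.p6, chr14:101609192-101609441 on the minus strand and chr16:45224087-45224336 on the plus strand, and neither held GGAAA or CTTTGA.
Tbc1d4: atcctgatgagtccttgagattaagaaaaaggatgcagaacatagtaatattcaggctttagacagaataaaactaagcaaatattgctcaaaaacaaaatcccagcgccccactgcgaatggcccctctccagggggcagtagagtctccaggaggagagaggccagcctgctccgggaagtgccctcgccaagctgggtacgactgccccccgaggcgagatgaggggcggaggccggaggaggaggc
Btla: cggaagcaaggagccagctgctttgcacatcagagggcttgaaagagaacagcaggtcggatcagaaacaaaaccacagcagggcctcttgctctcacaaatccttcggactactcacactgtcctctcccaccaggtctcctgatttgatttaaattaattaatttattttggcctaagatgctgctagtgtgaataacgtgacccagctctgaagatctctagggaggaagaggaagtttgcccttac
Entries were found for Tnfsf8, Slamf6, Gpm6b, Tbc1d4, Btla, Ctla4 and Bcl6. Sostdc1, Cd40lg and Maf are named only.

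Several follicular helper genes were below the 30-UMI minimum and are given as raw values. Tox2, a chromatin factor that upholds the Bcl6 program, gave 11 UMIs in 5 treated members and 10 UMIs in 6 PBS members, and only 4 and 2 UMIs in all other CD8-negative T cells of the treated and the PBS library. That is 113 CPM in treated and 192 CPM in PBS members, against 3.58 and 5 CPM. Tnfsf11, the TNF family ligand RANKL, gave 18 UMIs in 11 treated and 9 UMIs in 5 PBS members, or 184 and 173 CPM, against 26.8 and 10 CPM. Cd200, a ligand of an inhibitory myeloid receptor, gave 17 UMIs in 10 treated members but 2 UMIs in 2 PBS members. Il4 gave 6 UMIs in 2 treated members and 3 UMIs in 2 PBS members, and Il21 gave 2 UMIs in 2 treated members and none in PBS members.

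The receptors that usually define follicular helper T cells gave few UMIs. Cxcr5, the receptor that guides cells into B cell follicles, gave 3 UMIs in 3 treated members and 4 UMIs in 4 PBS members, and its end overlaps Bcl9l. That is 6.52% of treated and 20% of PBS members with a UMI, against 1.83% and 2% of other CD8-negative T cells and 17.4% and 20.5% of B gate cells. After thinning, Cxcr5 was found in 6.82% of treated and 5% of PBS members, against 1.57% and 1.78% of other CD8-negative T cells. Pdcd1, the gene of PD-1, gave 3 UMIs in 3 treated members and 1 UMI in 1 PBS member, or 30.7 CPM in treated and 19.2 CPM in PBS members, against 5.36 and 30 CPM in other CD8-negative T cells. All 4 of these Pdcd1-positive cells also carried Sostdc1.

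Among 24 transcription factors of helper T cells, 17 were measured and 3 were at least 2-fold higher in members of both libraries, namely Bcl6, Maf and Rora. Gata3, the Th2 factor, had log2 ratios of 0.49 in the treated and -0.056 in the PBS library. Tbx21, the Th1 factor, had 2 UMIs in treated and none in PBS members. Of 11 checkpoint receptors, 4 were measured and 2 were at least 2-fold higher in both libraries, Ctla4 and Btla. Of 17 measured TCR signalling genes and 16 measured antigen response genes none reached 2-fold in both libraries. The same held for 3 measured TNF family ligands and 8 measured type I interferon response genes. Of all measured genes 1.43% reached the mark each way, so finding none in lists this small says little. TCR signalling genes had median log2 ratios of 0.33 in the treated and 0.64 in the PBS library. The medians were 0.082 and -0.0045 for antigen response, 0.20 and 0.57 for TNF ligand, and 0.33 and 0.49 for interferon response genes. Over all measured genes they were 0.045 and -0.056.

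The 15 highest ratios also included Eea1, Stk39, Trp53inp1, Tspan14, Mmd, Cd9, Tnfaip8 and Trerf1. Eea1, which tethers early endosomes, stood at 451 CPM in treated and 423 CPM in PBS members, against 50.1 and 85.0 CPM (log2 ratio 3.17 in the treated and 2.32 in the PBS library). The other genes of this group had log2 ratios between 1.41 and 2.01 in the treated library and between 1.43 and 2.94 in the PBS library. Without the member cell that held most UMIs of each gene, which lowers the member level by construction, 14 genes in place of 36 stayed at least 2-fold higher in both libraries. Tbc1d4 was then at 3.42 in the treated and 3.56 in the PBS library, Ctla4 at 2.41 and 2.27, and Btla at 1.42 and 2.70. Bcl6 (1.59 and 0.68), Maf (2.16 and 0.70), Icos (1.30 and 0.46) and Sh2d1a (0.98 and 1.57) then lay under 1 in the PBS library or, for Sh2d1a, in the treated library.

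The named genes with lower ratios rested on few UMIs. The 10 lowest named genes were Gpd2, Tgfbr1, Pik3ip1, Klrk1, C1qa, St6galnac3, Myo10, Ociad1, Lrrc8c and Cdk8, each with 0 to 5 UMIs in the members of a library. Lrrc8c, a subunit of volume-regulated anion channels, had 5 UMIs in treated and 2 in PBS members, with log2 ratios of -1.39 (interval -3.03 to -0.13) and -1.58 (-4.67 to 0.36). Of 10 measured cytotoxicity genes, 4 were at least 2-fold lower in both libraries. Gzmb, the protease granzyme B of killer cells, had no UMI in members of either library, against 86 treated and 107 PBS UMIs in other CD8-negative T cells. The comparison cells held more RNA of natural killer genes, with 296 CPM in the treated and 618 CPM in the PBS library for 8 genes together, against 71.7 and 115 CPM in members. Macrophage genes in them stood at 770 CPM in the treated and 2105 CPM in the PBS library, against 635 and 154 CPM in members, where 2 of 14 genes were at 0 in the treated and 10 of 14 in the PBS members. Tumour cell genes summed to 1403 CPM in treated and 673 CPM in PBS members, against 1100 and 2493 CPM in other CD8-negative T cells, with 4 of 10 genes at 0 in treated and 5 of 10 in PBS members. At least 3 UMIs of B cell, macrophage, tumour and fibroblast genes together were found in 28 of 46 treated and 9 of 20 PBS members. Leaving such cells out took the members from 2.80% to 2.5% of treated T cells and from 2.57% to 9.17% of PBS T cells. Such cells were thus slightly more common among treated members than among all treated T cells, and less common among PBS members than among all PBS T cells. The part of RNA of other cell types in the ratios was not tested.

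Genes of resting T cells were mostly lower in members of the treated library, while those of the PBS library lay nearer to the comparison cells. Satb1, a chromatin organiser of resting T cells, stood at 502 CPM in treated and 866 CPM in PBS members, against 2033 and 1098 CPM in other CD8-negative T cells. Klf2, the factor that keeps resting T cells in circulation, stood at 451 CPM in treated and 519 CPM in PBS members, against 1195 and 853 CPM. Foxp1 was at 584 CPM in treated and 866 CPM in PBS members, against 1318 and 798 CPM. Of 16 resting and homing genes 14 were measured, 0 were at least 2-fold higher and 1 was at least 2-fold lower in both libraries, and their median log2 ratio was -0.94 in the treated and 0.26 in the PBS library.

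**Figure D4:**
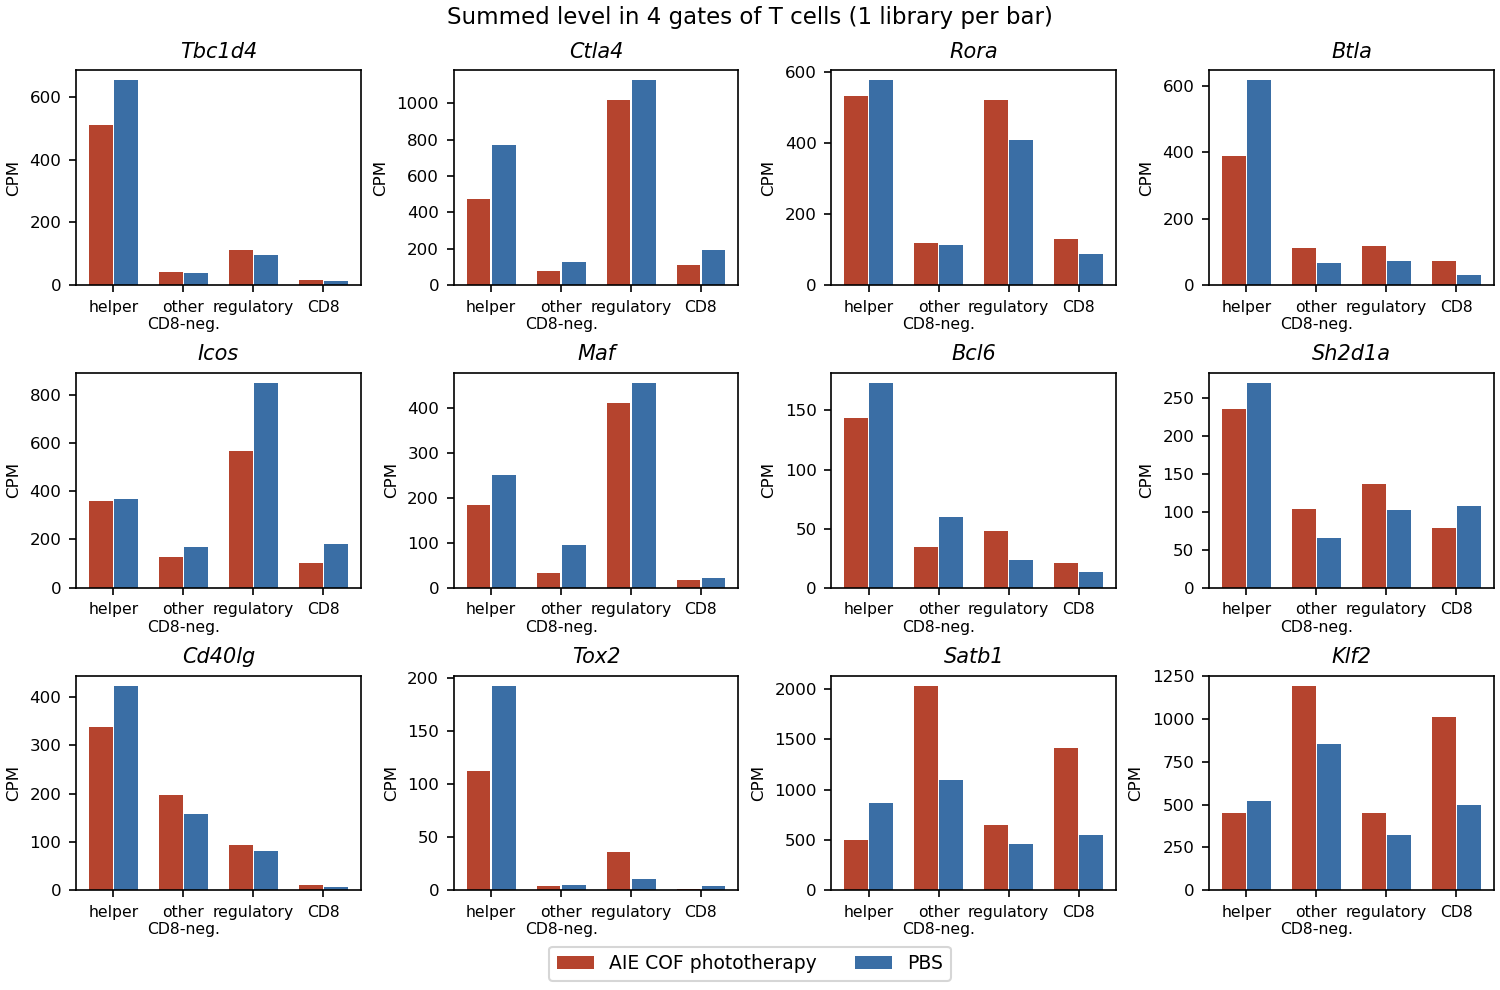
Level in CPM of 12 genes summed over helper gate cells, other CD8-negative T cells, regulatory gate cells and CD8 gate cells, with the AIE COF phototherapy library in red and the PBS library in blue (1 library per bar). Tbc1d4, Btla, Bcl6, Cd40lg and Tox2 are highest in helper gate cells in both libraries, while Ctla4, Icos and Maf are highest in regulatory gate cells and Satb1 and Klf2 lie lower in members than in other CD8-negative T cells.

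The members were not uniform, and Sostdc1 marked those with the most follicular helper RNA. In the 9 treated members with a Sostdc1 UMI the 30 follicular helper genes together made up 9242 CPM (exact Poisson interval 7955 to 10678), against 3718 CPM (3301 to 4172) in the 37 treated members without one. In the PBS library 2 members with Sostdc1 had 14866 CPM (12055 to 18135) and 18 without had 4224 CPM (3648 to 4866). Of the 97 UMIs behind the first value, 66 lay in 1 cell. Members without Sostdc1 include all those with Slamf6 alone, 15 treated and 9 PBS cells. Genes of resting T cells ran the other way, with 2612 CPM in Sostdc1-positive and 5145 CPM in other members of the treated library, and 1379 and 6578 CPM in the PBS library. Ccr7, the receptor for entry into lymph nodes, had no UMI in any Sostdc1-positive member and was found in 15 treated and 7 PBS members without Sostdc1. Tbc1d4 was found in 8 of 9 treated and 2 of 2 PBS members with Sostdc1, and in 12 of 37 treated and 8 of 18 PBS members without it.

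Single cells show how the genes sat together. The treated cell with the most Sostdc1 had 9 UMIs of it, 3 of Gpm6b, 2 of Slamf6, 2 of Cd4, 2 of Btla and 1 each of Maf, Tbc1d4, Icos and Ctla4 among 1937 UMIs. The PBS cell with the most Sostdc1 had 7 UMIs of it, 4 of Tnfsf8, 8 of Cd40lg, 3 of Cd4, 4 of Bcl6, 11 of Tbc1d4 and 10 of Btla among 3525 UMIs. That 1 PBS cell carried 4 of the 9 Bcl6 UMIs of the PBS members.

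In follicular helper genes, members chosen by Slamf6 alone lay nearer to the other CD8-negative T cells. The genes together summed to 2499 CPM in the treated and 3781 CPM in the PBS library, against 5884 and 7518 CPM in members with Tnfsf8, Sostdc1 or Gpm6b. Cells with a gate sum of 1 had 2226 CPM in the treated and 2479 CPM in the PBS library, and cells with a sum of 0 had 2086 and 1845 CPM. Resting genes summed to 7198 CPM in treated and 7746 CPM in PBS members with Slamf6 alone, to 3489 and 3921 CPM in the rest of the members, and to 9226 and 5631 CPM in other CD8-negative T cells, so the PBS members with Slamf6 alone lay above the comparison cells and the rest below them. When cells with Slamf6 alone were left out, 66 genes in place of 36 were at least 2-fold higher in members of both libraries. That setting left 31 treated and 11 PBS members, and ratios over fewer cells scatter more, so these counts cannot be compared directly. In the regulatory gate, the cells with 2 or more gate UMIs had 5616 CPM of the follicular helper genes in the treated and 5004 CPM in the PBS library. That gate as a whole had 3552 CPM in the treated and 3481 CPM in the PBS library. All members had 4844 and 5560 CPM, and other CD8-negative T cells 2104 and 1945 CPM.

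Within the members, the treated and PBS libraries differed most in genes carried by a few cells. Of 848 genes with at least 30 UMIs over both libraries, 50 were at least 2-fold higher in treated members (5.9%) and 16 at least 2-fold lower (1.89%), and the median log2 ratio of treated over PBS was -0.013. The minimum applied to the summed UMIs, of which treated members held 97649 and PBS members 51980. A gene high in treated members therefore passed it more easily, so the counts of 50 and 16 cannot be compared directly. None of the 8 measured follicular helper genes reached 2-fold either way, with a median of -0.30. Tbc1d4 stood at -0.35 (interval -1.01 to 0.32), Btla at -0.66 (-1.38 to 0.064), Cd40lg at -0.32 (-1.15 to 0.52) and Ctla4 at -0.71 (-1.35 to -0.059).

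The highest ratio was that of Ccl5, a chemokine of effector T cells, with 68 UMIs in treated and 1 UMI in PBS members. A single treated cell held 63 of the 68 Ccl5 UMIs, and 67 of the 83 UMIs of the 6 CD8 T cell list genes in treated members lay in 1 cell, against 3 UMIs in all PBS members. H2-Eb1, H2-Ab1, Cd74 and H2-Aa, genes of MHC class II presentation that mouse T cells do not normally use, gave 34, 35, 42 and 37 UMIs in treated and 1, 2, 3 and 3 UMIs in PBS members. One treated cell held 27, 28, 32 and 31 of these UMIs. The highest sum of the 11 dendritic cell genes in a treated member was 118 UMIs, against 2 UMIs in PBS members, and 6 of the 11 were at 0 in the treated members. For Plac8, 37 of 40 treated UMIs lay in 1 cell. Without the top cell of each library the log2 ratio was 1.90 for H2-Ab1, 1.41 for Cd74 and 0.68 for H2-Aa. Few UMIs lie behind these ratios, since PBS members held only 2, 3 and 3 UMIs of these genes even with the top cell. Without the top cells, Ccl5, H2-Eb1 and Plac8 had 5, 7 and 3 UMIs in treated members and none in PBS members, which gives no ratio. With every cell given equal weight the log2 ratios were 2.91 for H2-Eb1, 1.80 for H2-Ab1, 2.0 for Cd74 and 0.61 for H2-Aa. With doublets removed, these 4 genes and Plac8 were under the 30-UMI minimum, and Ccl5 stood at 5.37.

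A second group of genes was spread over many treated members. Atf2, a stress-activated transcription factor, gave 33 UMIs in 19 of 46 treated members and 3 UMIs in 3 of 20 PBS members. That is 338 CPM in treated and 57.7 CPM in PBS members, a log2 ratio of 2.55 (interval 0.88 to 4.90). In other CD8-negative T cells the same ratio was 0.17, in regulatory gate cells -0.61 and in CD8 gate cells 0.15. Pycard, the inflammasome adaptor, gave 29 UMIs in 18 treated and 3 UMIs in 2 PBS members (2.36), and Iqgap1, a cytoskeletal scaffold, 36 UMIs in 21 treated and 4 UMIs in 4 PBS members (2.26). With doublets removed Atf2 stood at 2.45 and Iqgap1 at 2.41, while Pycard had no value. With a gate sum of at least 3, none of Atf2, Pycard and Iqgap1 had a value.

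The 10 lowest ratios in treated members were those of Atp5md, Lrig1, Runx1, Smc4, Ube2k, Trerf1, Arpc1b, Ptpn2, Exoc4 and Srsf10, with log2 values between -2.03 and -1.17. Runx1, a transcription factor of T cell development, gave 17 UMIs in 14 treated members and 24 UMIs in 10 PBS members, 174 CPM in treated and 462 CPM in PBS members (-1.41, interval -2.40 to -0.45). Ptpn2, a phosphatase that dampens cytokine receptor signals, gave 15 UMIs in 13 treated and 19 UMIs in 7 PBS members (-1.25, interval -2.33 to -0.20). Lrig1, a membrane regulator of growth factor receptors, gave 14 UMIs in 7 treated and 28 UMIs in 9 PBS members (-1.91). Atp5md, Lrig1 and Arpc1b overlap another gene near their ends.

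**Figure D5:**
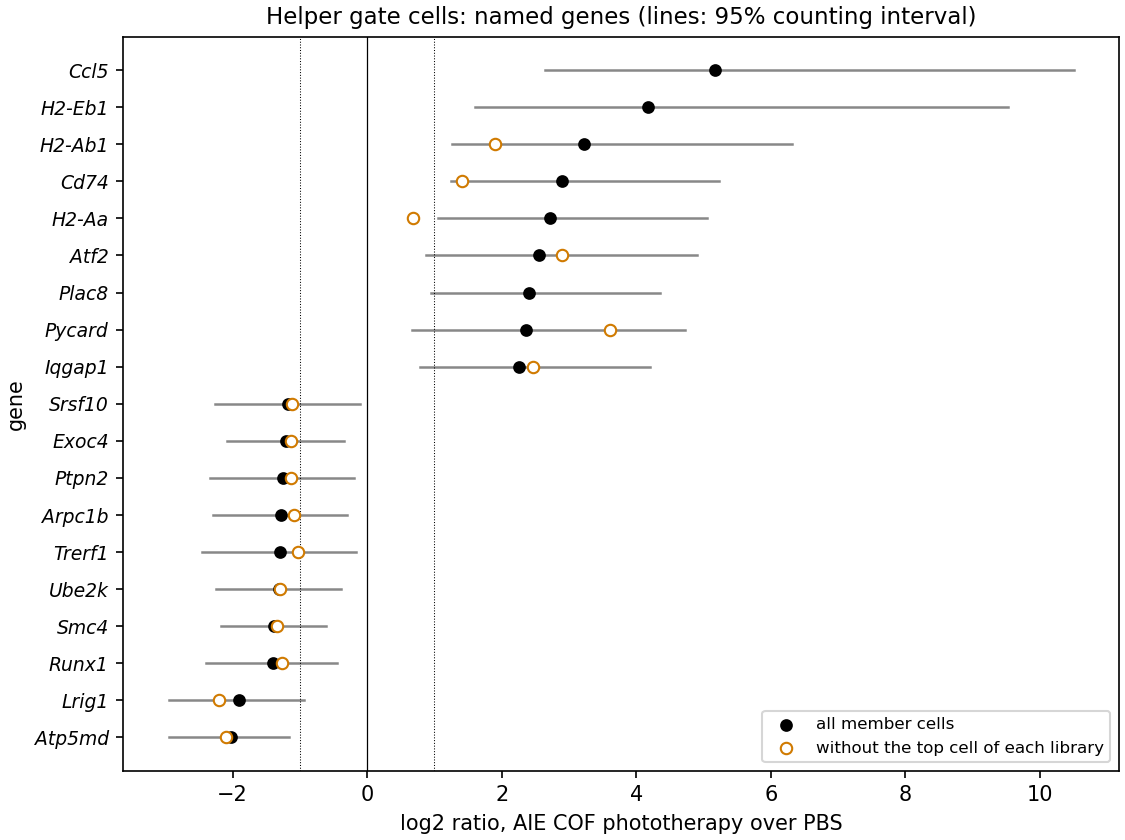
Log2 level ratio of AIE COF phototherapy over PBS within helper gate cells for 9 named genes with high and 10 with low ratios, with 95% counting intervals (lines), for all cells (filled) and without the top cell of each library (open). The open point of H2-Aa lies at 0.68, and those of Ccl5, H2-Eb1 and Plac8 are absent because the PBS library is left at 0, while Atf2, Pycard and Iqgap1 stay above 1.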

How the data were processed

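Single-cell 3' RNA-seq of 2 tumour libraries was analysed. The authors deposited raw UMI counts for each gene in each barcode. STAR and mm10 are named per the submitters' processing notes, with versions, counting program and annotation not given in the sources used here. Gene positions came from GENCODE M21, promoters from RefSeq. Library totals were 115576457 UMIs for the AIE COF phototherapy library and 145045294 for the PBS library, and the members held 97649 and 51980 UMIs.

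UMIs were summed over the cells of a gate and expressed per 1000000 UMIs (CPM) with Python 3.11.15, numpy 2.4.6, scipy 1.17.1 and pandas 2.3.3. Ratios carry exact conditional binomial 95% intervals, shares Clopper-Pearson intervals and sums Poisson intervals. A value of 0 was set to a floor of 3 counts per summed group, and bounds on the wrong side of 0 were dropped. Called means at least 2-fold, with no p-value, since each group is 1 library. The summing and interval code was tested on simulated data. Doublets were kept and removed only as an alternative (Scrublet in scanpy 1.11.5, 694 treated and 569 PBS cells, of them 3 and 0 members).

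Named genes were those of 5 lists (gate, helper marker, follicular helper, TNF ligand and transcription factor genes), the 15 highest and 10 lowest ratios of members over other CD8-negative T cells that agreed in both libraries at 50 CPM or more, the 10 highest and 10 lowest ratios of treated over PBS at 100 CPM or more, and up to 4 measured members of each described list. Members and lists were chosen with earlier results of these data known. A few named genes are not reported here.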

Additional observations from a re-analysis of the deposited data

Results flagged for a closer look

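Among gene lists with at least 4 measured genes, the median log2 ratio of members over other CD8-negative T cells had opposite signs in the libraries, and differed between them by 1 or more, for 3 lists. Further lists had opposite signs with smaller differences. None of these differences was tested. The resting and homing T cell list had a median log2 ratio of -0.94 in the treated and 0.26 in the PBS library. Its summed level was 4629 CPM in treated and 5925 CPM in PBS members, and 9226 and 5631 CPM in other CD8-negative T cells, so the comparison cells differed more between the libraries than the members did. The dendritic cell list had a median of 0.62 in the treated and -3.10 in the PBS library, with 118 of the 149 treated UMIs in 1 member. The tumour cell list had a median of 0.35 in the treated and -1.36 in the PBS library, with UMIs in 40 of 46 treated and 17 of 20 PBS members.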

How the results depend on the processing

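No paired analysis was possible because each group has 1 library. The alternatives changed the gate sum, cell filter, doublets, mixed cells, depth, cell weights, scaling, minimum, threshold and comparison cells. With a gate sum of at least 3, 28 genes (5.29% of those measured) were at least 2-fold higher in treated members in place of 50 (5.9%). Thinning before the gates gave 17 higher (7.17%) and 7 lower (2.95%), and 17 lower (0.991%) than other CD8-negative T cells, a log2 share ratio of 0.35 within CD8-negative conventional T cells, and a reversed value of 0.39 for Ociad1 in the treated library. Without cells of 3 or more UMIs of other cell types, log2 share ratios were -1.87 (T cells) and -1.91 (CD8-negative conventional T cells), with 16 genes higher (6.75%) and 9 lower (3.8%) in treated members, and 18 higher (3.52%) and 10 lower (1.96%) than other CD8-negative T cells, so counts were smaller over fewer measured genes. In the same order, a minimum of 10 UMIs gave 378, 239, 118 and 77 genes, one of 100 UMIs 3, 0, 7 and 3, and a 1.5-fold threshold 145, 82, 129 and 138, by construction. The number of measured genes changes with the minimum, so the counts at 10 and 100 UMIs cannot be compared directly with those at 30 UMIs. The log2 ratio of the share of all cells ran from 0.57 to 1.65. Alternatives chosen after seeing the data left out cells with Slamf6 alone (66 genes higher than other CD8-negative T cells), left out the top cell of each gene (14 higher), and dropped the limit on regulatory genes. Counts under these alternatives are given without a share of measured genes and cannot be compared directly with the main counts. Of 582 values of single genes under settings that could move them, 560 stayed within their counting interval, 21 moved beyond it and 1 reversed. Of 70 such values, thinning left 19 and the removal of mixed cells 6, and 7 and 4 of these moved or reversed. The 46 and 20 cells limit what can be seen: a gene needs 30 UMIs over both libraries to be counted.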

Other observations

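Receptors for the ligands of these cells were looked up in the B gate and the macrophage gate. B gate cells had a median of 1295 UMIs in the treated and 1643.5 in the PBS library but reached 83667 and 92747, and tumour genes summed to 7990 and 7111 CPM there, against 5609 and 4454 CPM for B cell genes, so the B gate levels are not those of B cells alone. Cd40, the receptor of CD40 ligand, stood at 13.9 CPM in treated and 18.4 CPM in PBS B gate cells, and at 23.5 and 23.4 CPM in macrophage gate cells. Tnfrsf8, the receptor of CD30 ligand, gave no UMI in treated and 3 UMIs in PBS B gate cells, and 15 and 5 UMIs in macrophage gate cells. Tnfrsf11a, the receptor of RANKL, stood at 51.8 CPM in treated and 55.6 CPM in PBS macrophage gate cells. Icosl, the ligand of ICOS, stood at 14.6 CPM in treated and 16.9 CPM in PBS B gate cells. The B gate held 10.1% of retained cells in the treated and 4.10% in the PBS library, a ratio of 2.45.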
